A study of Mus musculus with 6 samples.

Results

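Histone lysine methyltransferases and demethylases, the enzymes that write and erase methyl groups on histone tails, were examined in cultured mouse spermatogonial stem cells given an inhibitor of another such enzyme, DOT1L. The members were the rows of the deposited gene count table that carry one of 42 listed symbols: SET-domain proteins outside Polycomb and without Kmt2a, and demethylases of the flavin-dependent and JmjC types. Of these, 39 symbols were rows of the table, which holds 24495 symbols in all, and Setd8, Suv420h1 and Suv420h2 were dropped because no row carries those symbols. All 39 passed the filter on low counts and were tested among 14855 genes. No result of the treatment comparison entered the choice by symbol, although earlier results of these data were known when the list was drawn up.

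The cells were spermatogonial stem cells from testes of DBA2 mice of postnatal days 5 to 8, grown in vitro. One group received 2 uM EPZ5676 (pinometostat, a small molecule that blocks DOT1L, the methyltransferase of histone H3 lysine 79), and the other received 0.2% ethanol, each for 2 weeks. Each group had 3 libraries, numbered 1 to 3, which the design text calls biological replicates; the number of animals or cultures behind them is not given, so p-values measure the spread between these libraries. In bulk RNA, fewer cells of a type and less RNA per cell cannot be told apart. The design poses the question of whether the RNA of other histone methylation enzymes differed when DOT1L was inhibited.

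Methylation of histone H3 at lysines 4 and 36 accompanies active transcription. Di- and tri-methylation at H3 lysine 9 and tri-methylation at H4 lysine 20 mark repressed chromatin. Most writers use a SET domain, which DOT1L, also a lysine writer, lacks. Erasers belong to the LSD family, which uses a flavin cofactor, or to the JmjC family, which uses iron and 2-oxoglutarate. In the male germ line several of them are known to be needed for spermatogonial maintenance or for meiosis, among them the H3 lysine 9 enzymes that silence retrotransposons.

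Gene counts totalled 17784332 (ethanol replicate 2) to 54645903 (EPZ5676 replicate 2) per library, so the replicate 2 libraries held both extremes of depth. The next deepest library, ethanol replicate 3, had 21046473. The members had between 18 and 37066 counts in a library, with a median of 5146. The germ cell genes Ddx4 and Dazl averaged 663 and 1695 CPM (read counts scaled to library size) with ethanol, and all 15 germ cell markers had counts in every library. The summed level of 20 fibroblast markers was 1504, 1978 and 1617 CPM in EPZ5676 replicates 1, 2 and 3 and 1480, 2572 and 1601 CPM in ethanol replicates 1, 2 and 3; none of the 20 was at 0 in any library. It was thus highest in replicate 2 of both groups, and the replicate 2 libraries also stood apart from the other 4 on the first principal component. Between the groups, 17 of the 20 fibroblast markers had negative log2 fold changes (EPZ5676 over ethanol), with a median of -0.20. None passed the test over all genes with or without the replicate block described below. With it, 7 were lower and 1 higher at an unadjusted p under 0.05, beside 9.51% and 9.01% of all genes. Of the 15 germ cell markers, 9 had positive and 6 negative log2 fold changes, from -0.41 to 0.48, with a median of 0.06. None of them passed in either fit. With the block, 2 were higher and 4 lower at an unadjusted p under 0.05, beside 9.01% and 9.51% of all genes. The part of the fibroblast or germ cell marker levels in the differences between groups was not tested. The 12 Sertoli cell markers summed to between 43.9 and 58.7 CPM, with at most 2 of them at 0 in a library, and the 10 macrophage and endothelial markers to between 28.2 and 34 CPM.

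Most of the enzymes were well expressed with vehicle. On a scale of CPM per kilobase of exons, Ehmt2 (G9a, which mono- and di-methylates H3 lysine 9) was the highest member with ethanol, at 155 ± 16.3 (SD, n = 3). Kdm1a (LSD1, an eraser of mono- and di-methylated H3 lysine 4) followed at 107 ± 4.60, and Setdb1, which tri-methylates H3 lysine 9 at retrotransposons, at 85.4 ± 5.30. These levels lay further apart than their spread, but the next, Setd5 at 75.9 ± 3.02 and Setd1a at 70.2 ± 5.77, did not. Setd1a, a catalytic subunit of a complex that tri-methylates H3 lysine 4, was the highest of its class, and its paralog Setd1b was at 3.74 ± 0.948 CPM per kilobase.

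Paralogs differed widely on this per-length scale. The lowest members were Kdm4d, a JmjC eraser of H3 lysine 9 methylation, at 0.427 ± 0.0882 CPM per kilobase, Setdb2 at 0.833 ± 0.215 and Phf2, a JmjC protein of the PHF8 family, at 1.12 ± 0.422. Within the KDM4 family, Kdm4a stood at 20.01 ± 4.84, Kdm4b at 7.01 ± 0.0798 and Kdm4c at 4.30 ± 0.269 (SD, n = 3). Suv39h1 and Suv39h2, paralogs that tri-methylate H3 lysine 9 in heterochromatin, were closer together, at 31.6 ± 0.650 and 21.7 ± 0.934. Lengths came from a mouse annotation on another genome build than the counts, so the per-length order is approximate.

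**Figure D1:**
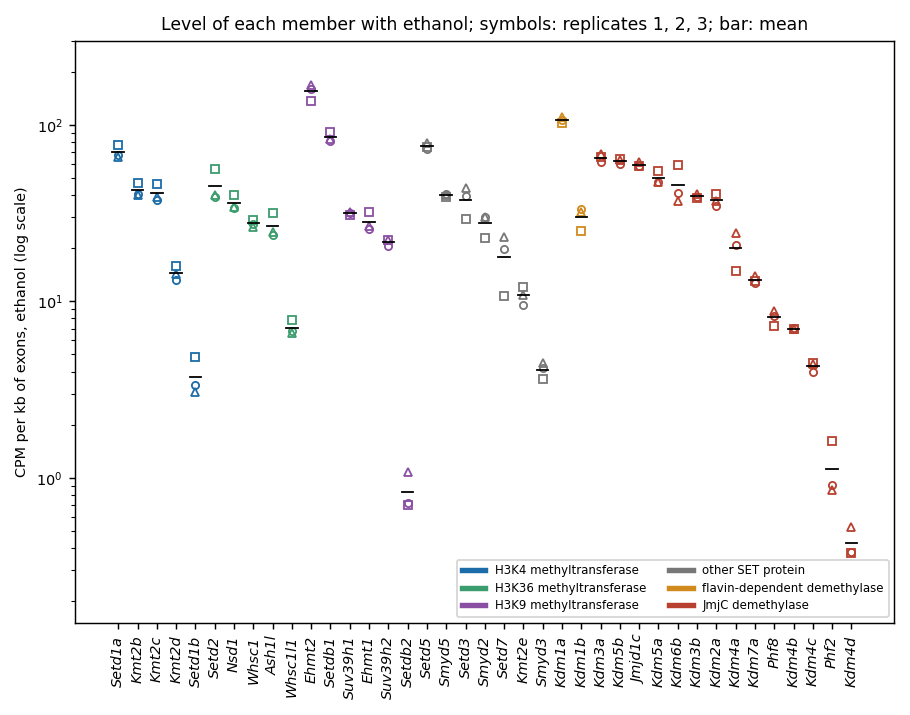
Level of each of the 39 members in the 3 ethanol libraries, in CPM per kilobase of exons on a log axis; circles, squares and triangles are replicates 1, 2 and 3, the bar is their mean and colour gives the class. Ehmt2 is highest at 155 and Kdm4d lowest at 0.427.

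Fold changes of these enzymes were small. None of the 39 members passed the test over all genes at an adjusted p under 0.05 (edgeR quasi-likelihood test, Benjamini-Hochberg adjustment); that fit called 0% of all genes tested. Log2 fold changes (EPZ5676 over ethanol) were positive for 20 members and negative for 19, against 48.3% positive over all genes. Their median was 0.02, against -0.01 over all genes, and they ran from -0.31 for Setdb2 to 0.49 for Phf2. The median size of the log2 fold change, regardless of sign, was 0.07 for the members and 0.12 for all genes tested. These sets were not matched for expression level, so the gap does not show that the enzymes changed less.

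The intervals show which sizes of change the data allow. The 95% interval of the fold change lay within 1.5-fold in both directions for 34 members. The other 5 were Kmt2d, Setd7, Setdb2, Kdm4d and Phf2. Only Phf2 had an interval that reached past 2-fold, from 0.916-fold to 2.17-fold. For Kdm5b, an H3 lysine 4 eraser and the JmjC member of highest mean CPM, the interval was 0.919-fold to 1.12-fold. For Kdm1a, which averaged 327 ± 41.5 CPM in the EPZ5676 libraries and 327 ± 14.1 CPM in the vehicle libraries (SD, n = 3), it was 0.856-fold to 1.17-fold.

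**Figure D2:**
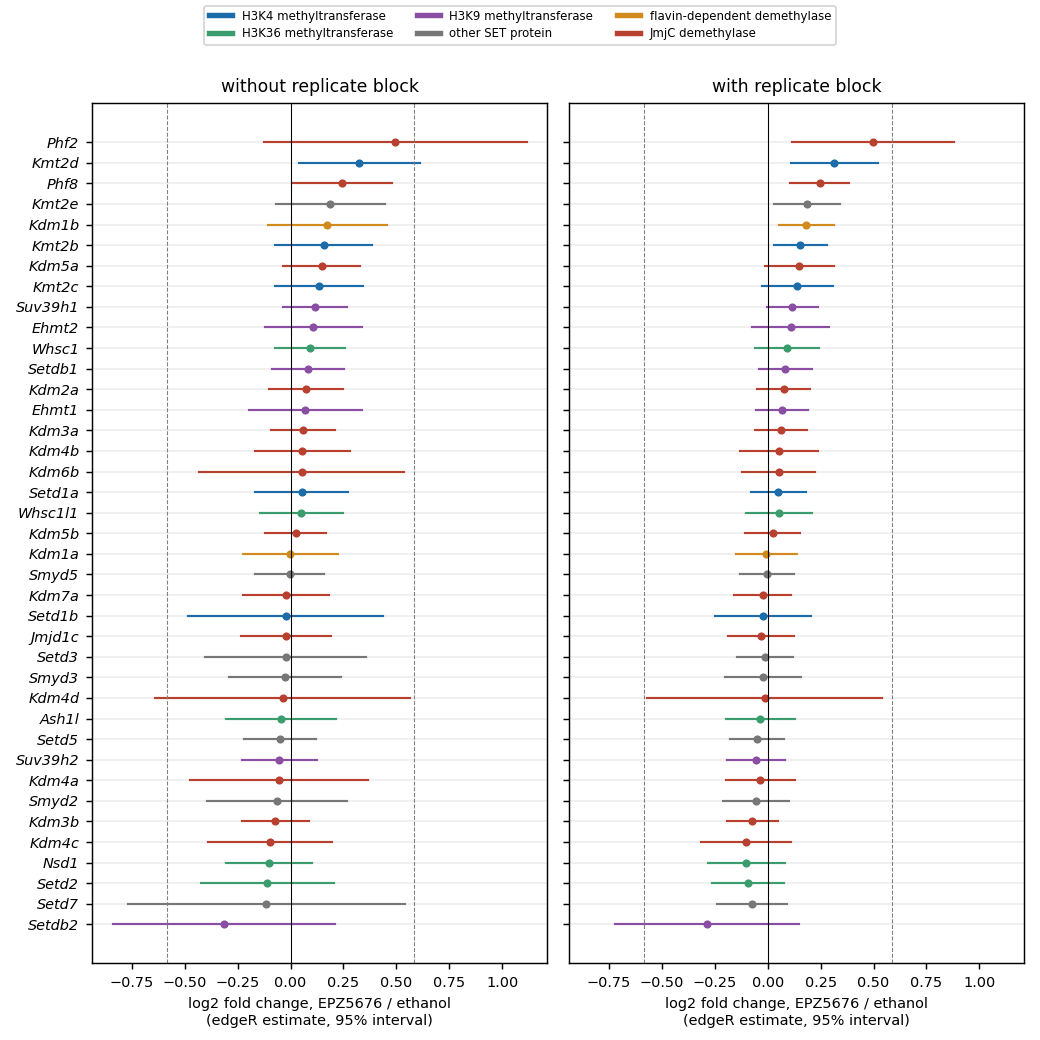
Log2 fold change (EPZ5676 over ethanol) of each member with its 95% interval, from edgeR without the replicate block (left) and with it (right); dashed lines mark 1.5-fold. Without the block 34 of 39 intervals lie between the dashed lines, and with it 37.

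Libraries with the same number deviated together from their group means, although replicates 1 and 3 also did so across numbers. The comparison was therefore also made with the replicate number as a block, that is, within pairs. That fit called 0.653% of all genes tested and none of the members, whose edgeR adjusted p (Benjamini-Hochberg) ran from 0.107 to 0.983. At an unadjusted p under 0.05 it gave 6 members higher and 0 lower, beside 9.01% and 9.51% of all genes. Without the block 2 members were higher and 0 lower at that level, beside 3.84% and 3.57% of all genes. Leaving out 1 library moved the count of 2 to 0 (without EPZ5676 replicate 1 or ethanol replicate 1), 1 (without EPZ5676 replicate 2 or ethanol replicate 3) or 6 (without ethanol replicate 2), and the 1101 genes below that level in all to between 609 and 1662. The 6 were 15.4% of the members. With the block, 37 intervals lay within 1.5-fold and all 39 within 2-fold.

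The members with an unadjusted p under 0.05 in one fit or the other were Kmt2d, Phf8, Phf2, Kmt2e, Kmt2b and Kdm1b. Kmt2d encodes MLL4, which mono-methylates H3 lysine 4 at enhancers. It stood at 388, 396 and 293 CPM in EPZ5676 replicates 1, 2 and 3 and at 261, 316 and 284 CPM in ethanol replicates 1, 2 and 3. EPZ5676 replicates 1 and 2 were above every ethanol library, while EPZ5676 replicate 3 lay below ethanol replicate 2, so the groups overlapped. The log2 fold change was 0.32 ± 0.13 (SE) without the block and 0.32 ± 0.09 with it, with adjusted p of 0.645 and 0.137 in the edgeR test.

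The size of the Kmt2d difference varied among the pairs. Log2 differences within pairs 1, 2 and 3 were 0.57, 0.33 and 0.04. The blocked edgeR test without pair 3 called Kmt2d alone of the members, at a log2 fold change of 0.45 and an adjusted p of 0.00172, where it called 5.1% of all genes. DESeq2 with the block also called Kmt2d alone of the members, at an adjusted p of 0.0368, where it called 1.97% of all genes. Without pair 2 the blocked edgeR test gave 0.31 at an adjusted p of 0.0366. Without pair 1 it gave 0.19 at an adjusted p of 0.681, where it called 0 of 15002 genes. These tests on 2 pairs have 1 residual degree of freedom.

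The log2 fold changes of Kmt2b, Kmt2c and Kmt2e were smaller than that of Kmt2d. Like Kmt2d, these genes did not pass the edgeR test over all genes when all libraries were used. Kmt2b, the paralog of Kmt2a that methylates H3 lysine 4 at promoters, was at 399, 448 and 358 CPM with EPZ5676 and 345, 397 and 340 CPM with ethanol, in replicate order. It was higher in each pair although the groups overlapped, and its log2 fold change was 0.15 ± 0.05 (SE) with the block. Kmt2c, which encodes the enhancer enzyme MLL3, was at 640, 658 and 718 CPM with EPZ5676 and 561, 688 and 586 CPM with ethanol; replicate 2 went the other way from replicates 1 and 3. Kmt2e encodes a SET protein with no established histone methyltransferase activity, and it was at 80.3, 92.0 and 98.5 CPM against 70.2, 88.5 and 79.2 CPM. It was higher in each pair, with the smallest gap in pair 2. Leaving out 1 library at a time gave 0.07 to 0.23 for Kmt2b (lowest without EPZ5676 replicate 2), 0.08 to 0.23 for Kmt2c (lowest without ethanol replicate 1, highest without ethanol replicate 2) and 0.11 to 0.27 for Kmt2e (lowest without ethanol replicate 1).

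Kmt2a, the founding MLL gene and not a member, was at 510, 540 and 568 CPM with EPZ5676 and 397, 489 and 417 CPM with ethanol. Its groups did not overlap, and its log2 fold change was 0.31 ± 0.09 (SE), at edgeR adjusted p of 0.596 unblocked and 0.0740 blocked. DESeq2 with the block called Kmt2a at an adjusted p of 0.007265, where it called 1.97% of all genes. The blocked edgeR test without pair 2 called it at 0.000206, where it called 5.36% of all genes. That test did not call it without pair 1 (0.557) or without pair 3 (0.05635). These tests on 2 pairs have 1 residual degree of freedom. Dot1l itself, which encodes the drug's target, was at 251, 279 and 199 CPM with EPZ5676 and at 198, 205 and 202 CPM with ethanol, so EPZ5676 replicate 3 lay inside the ethanol range. Its log2 fold change was 0.27 ± 0.12 (SE), at edgeR adjusted p of 0.668 unblocked and 0.1765 blocked. This value was 0.16 without EPZ5676 replicate 2 and 0.39 without EPZ5676 replicate 3. The blocked edgeR test without pair 3 called Dot1l at an adjusted p of 0.00305, where it called 5.1% of all genes. It did not call Dot1l without pair 1 (0.681) or without pair 2 (0.194), and DESeq2 with the block did not either (0.123). The remaining H3 lysine 4 writers, Setd1a and Setd1b, had log2 fold changes of 0.05 ± 0.10 and -0.02 ± 0.20. The 5 members that write H3 lysine 4 methylation had a median log2 fold change of 0.14.

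Phf8 encodes a JmjC eraser of H3 lysine 9 and H4 lysine 20 methylation that binds tri-methylated H3 lysine 4. It was at 79.7, 74.8 and 87.9 CPM in EPZ5676 replicates 1, 2 and 3 and at 69.6, 60.7 and 74.5 CPM in ethanol replicates 1, 2 and 3. Every EPZ5676 library was above every ethanol library. The log2 fold change was 0.24 ± 0.10 (SE), an interval of 1.003-fold to 1.39-fold, and the edgeR adjusted p was 0.670 unblocked and 0.107 blocked. Leaving out 1 library at a time gave 0.16 (without ethanol replicate 2) to 0.31.

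Phf2, of the same family, was at 9.61, 9.69 and 6.63 CPM with EPZ5676 and at 4.98, 8.85 and 4.70 CPM with ethanol. Ethanol replicate 2 lay among the EPZ5676 libraries. The log2 fold change was 0.49 ± 0.27 (SE) and the adjusted p 0.718 in the edgeR test; leaving out 1 library at a time gave 0.33 (without ethanol replicate 3) to 0.84 (without ethanol replicate 2). Counts were small, from 98 to 534 per library. Kdm7a, the third gene of this family, was near 0, at -0.02 ± 0.09.

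Kdm1b encodes LSD2, an H3 lysine 4 eraser known for its need in setting maternal imprints in oocytes. It was at 179, 152 and 180 CPM with EPZ5676 and 167, 125 and 161 CPM with ethanol. Each pair was higher with EPZ5676, and both replicate 2 libraries were the lowest of their group. Its log2 fold change was 0.17 ± 0.12 (SE) without the block and 0.18 ± 0.06 with it, at adjusted p of 0.782 and 0.163 in the edgeR test. Without ethanol replicate 2 the unblocked value was 0.05, and without ethanol replicate 1 it was 0.25. Its paralog Kdm1a differed by 0.06, -0.16 and 0.08 in pairs 1, 2 and 3.

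**Figure D3:**
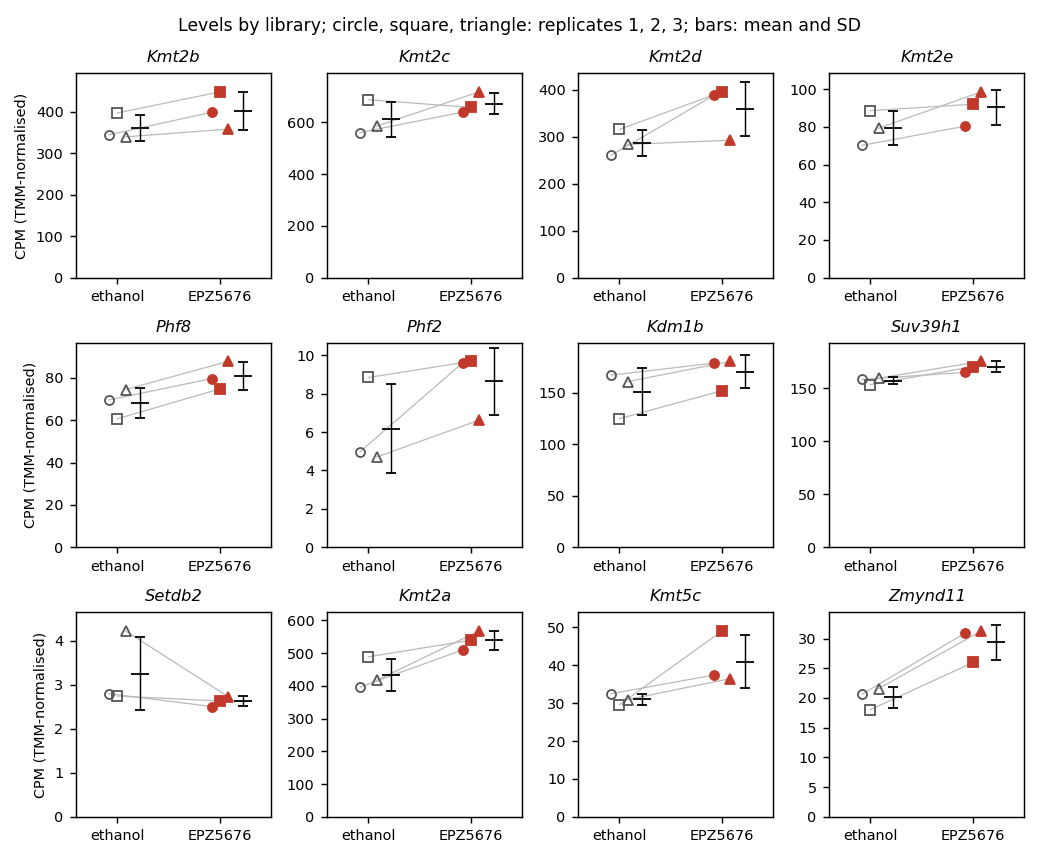
CPM in each library for 9 members and for Kmt2a, Kmt5c and Zmynd11, which are no members; circles, squares and triangles are replicates 1, 2 and 3, grey lines join libraries with the same number, and bars give mean and SD of each group. Phf8 and Suv39h1 have every EPZ5676 library above every ethanol library, while Kmt2d and Phf2 overlap.

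Groups did not overlap for 3 members: Phf8 and Suv39h1 were higher in every EPZ5676 library and Setdb2 was lower. This is 2 of 39 higher and 1 of 39 lower, beside 7.22% and 7.64% of all genes. Suv39h1 was at 165, 170 and 175 CPM with EPZ5676 and at 158, 153 and 160 CPM with ethanol, so that its fitted difference was 0.12 ± 0.07 (log2, SE), at an edgeR adjusted p of 0.727. Setdb2, a SETDB1-related gene, was at 2.51, 2.63 and 2.73 CPM against 2.80, 2.74 and 4.22 CPM. Ethanol replicate 3 was set apart from the other 5 libraries, which held 49 to 145 counts at similar CPM, and without it the log2 fold change was -0.08 in place of -0.31.

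The other H3 lysine 9 writers had overlapping groups. Ehmt2 was at 762, 672 and 631 CPM with EPZ5676 and 658, 564 and 694 CPM with ethanol, with a lower EPZ5676 value in pair 3 and higher ones in pairs 1 and 2. Its log2 fold change of 0.11 ± 0.10 (SE) became 0.02 without ethanol replicate 2, 0.03 without EPZ5676 replicate 1, 0.16 without EPZ5676 replicate 3 and 0.17 without ethanol replicate 3. Ehmt1, its partner GLP, had a log2 fold change of 0.07 ± 0.12 (SE), Setdb1 one of 0.08 ± 0.07 and Suv39h2 one of -0.05 ± 0.08. The median over the 6 genes was 0.08.

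H3 lysine 36 writers showed no common direction. Nsd1, which mono- and di-methylates this residue, was at 450, 429 and 493 CPM with EPZ5676 and at 460, 544 and 469 CPM with ethanol. Setd2, which adds the third methyl group in transcribed gene bodies, was at 326, 375 and 344 CPM against 325, 468 and 336 CPM. In both genes ethanol replicate 2 was the highest library, and pairs 1 and 3 differed by at most 0.07 on the log2 scale. The Nsd1 log2 fold change of -0.10 became -0.03 without ethanol replicate 2, -0.06 without EPZ5676 replicate 2 and -0.16 without EPZ5676 replicate 3. Whsc1 (NSD2), Whsc1l1 (NSD3) and Ash1l had log2 fold changes of 0.09 ± 0.07, 0.05 ± 0.09 and -0.04 ± 0.11 (SE), and none of the 5 genes went the same way in all 3 pairs.

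Writers of H4 lysine 20 methylation could be followed only under the newer symbols Kmt5a, Kmt5b and Kmt5c, the genes of the dropped names, which were added after the table had been seen. Kmt5c, which di- and tri-methylates this residue in heterochromatin, was at 37.4, 49.1 and 36.5 CPM in EPZ5676 replicates 1, 2 and 3 and at 32.5, 29.6 and 30.9 CPM in ethanol replicates 1, 2 and 3. The groups did not overlap. Its log2 fold change was 0.41 ± 0.13 (SE), at edgeR adjusted p of 0.596 unblocked and 0.132 blocked, and pair 2 differed most, by 0.72. Kmt5a and Kmt5b had values of -0.05 ± 0.18 and -0.06 ± 0.10.

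The other SET proteins had mostly small negative values. Setd5, a SET protein with disputed histone activity, was at 498, 465 and 537 CPM with EPZ5676 and 500, 510 and 540 CPM with ethanol. Of the 7 genes in this class, 6 were negative, from -0.11 for Setd7 to -0.0047 for Smyd5, and Kmt2e was the positive one. Among the JmjC erasers the H3 lysine 4 enzyme Kdm5a was at 588, 581 and 639 CPM against 518, 598 and 517 CPM, overlapping through ethanol replicate 2. The 14 JmjC genes had a median of 0.04, and Kdm6b, an H3 lysine 27 eraser, ranged widely within each group, from 232 to 380 CPM with EPZ5676 and from 245 to 393 CPM with ethanol.

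**Figure D4:**
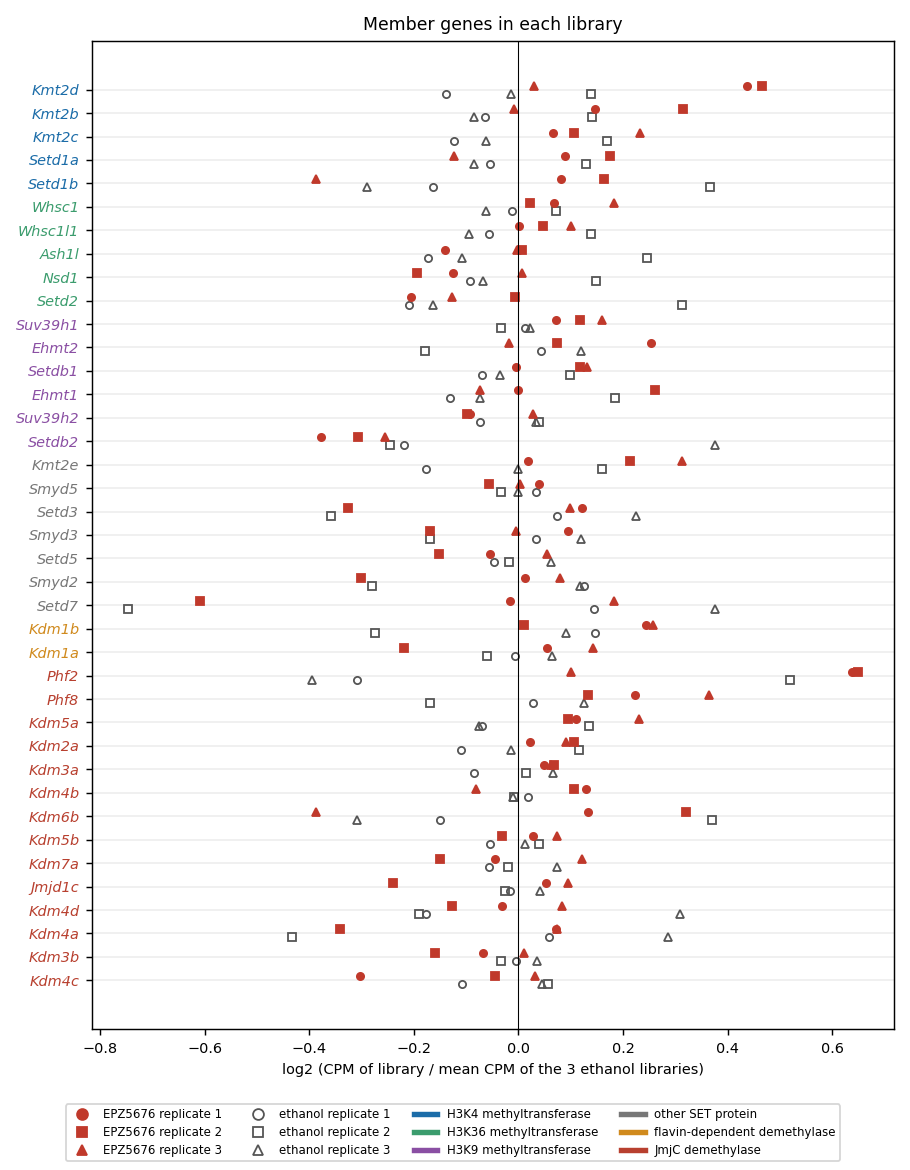
Log2 ratio of each library's CPM to the mean of the 3 ethanol libraries, for all 39 members ordered by class; filled red symbols are EPZ5676 and open grey symbols ethanol, with circles, squares and triangles for replicates 1, 2 and 3. Squares of both groups often lie together, as for Setd7 and Kdm6b.

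Counted by pairs, 9 members were higher with EPZ5676 in all 3 pairs and 6 were lower, beside 19.5% and 22.3% of all genes tested. The 9 were Kmt2b, Kmt2d, Kmt2e, Setdb1, Suv39h1, Ehmt1, Kdm1b, Phf8 and Phf2. The 6 were Setd5, Setdb2, Suv39h2, Smyd2, Kdm3b and Kdm4c. Shares of 23.1% and 15.4% were close to those of all genes.

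For several members the replicate 2 libraries differed from the others by more than the groups differed from each other. Setd7, which methylates many non-histone proteins, was at 131, 87.1 and 151 CPM in EPZ5676 replicates 1, 2 and 3 and at 147, 79.2 and 173 CPM in ethanol replicates 1, 2 and 3. Both replicate 2 libraries were far below the other 4, by 0.69 on the log2 scale with EPZ5676 and 1.01 with ethanol. Kdm4a and the actin histidine methyltransferase gene Setd3 were also lower in both, and Kdm6b, Setd1b and Setd2 higher in both. Across the 39 members the log2 ratio of replicate 2 to the mean of replicates 1 and 3 correlated between the groups at Pearson's r of 0.85 and Spearman's rho of 0.79, against 0.64 and 0.60 over all genes tested. These values describe genes measured in the same libraries and carry no p, and the members were not matched to all genes for expression level.

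With both replicate 2 libraries left out, 7 members were higher at an unadjusted p under 0.05 and 0 lower in edgeR without the block. Of 14822 genes in that fit, 1004 (6.77%) were higher and 1064 lower at that level. The 7 members were Kmt2c, Kmt2d, Kmt2e, Kdm5a, Whsc1, Phf8 and Phf2, and none passed the adjusted threshold. The blocked test on pairs 1 and 3 called Kmt2c, Kmt2d, Kmt2e, Kdm5a and Phf2 higher, 5 of 39 members or 12.8%, where it called 5.36% of all genes. Those calls rest on 1 residual degree of freedom, and none of the 5 was called by edgeR with the 3 pairs. The part of the fibroblast marker level, which was highest in replicate 2, in these values was not tested.

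**Figure D5:**
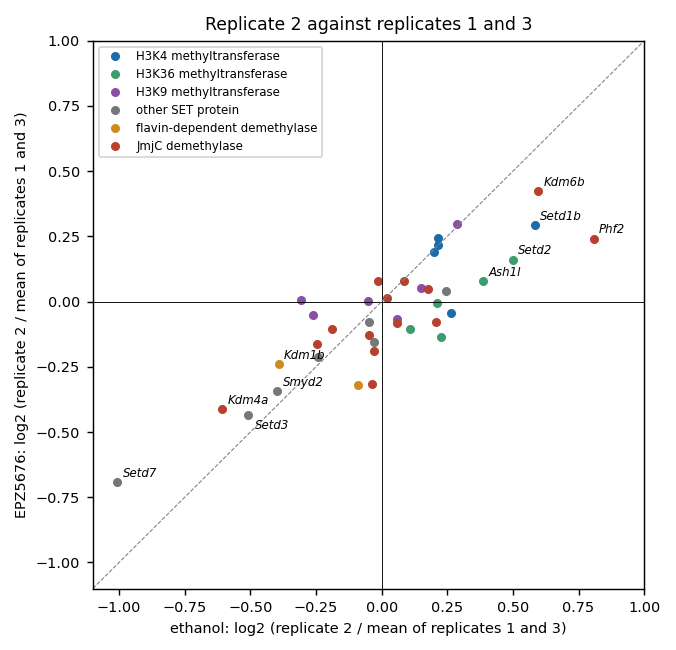
Log2 ratio of replicate 2 to the mean of replicates 1 and 3 for each member, in ethanol (horizontal) and EPZ5676 (vertical); colour gives the class and the dashed line marks equal ratios. Setd7 lies lowest in both groups, at -1.01 and -0.69, and Kdm6b is highest with EPZ5676, at 0.42.

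Several members have a large total exon length, so exon length was set beside the values. Spearman's rho between exon length and log2 fold change was 0.23 across the 39 members and 0.02 across 14529 genes with a length. Of 7 members with at least 10 kb of exons, 5 had positive values, beside 48.3% of all genes tested, of any length.

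Among 20 genes for partners and readers of the methyltransferases, Zmynd11 passed the test over all genes in the blocked fit. Zmynd11 encodes a reader of tri-methylated lysine 36 on histone H3.3. It was at 30.9, 26.0 and 31.3 CPM in EPZ5676 replicates 1, 2 and 3 and at 20.6, 18.0 and 21.6 CPM in ethanol replicates 1, 2 and 3. The groups did not overlap, and pairs 1, 2 and 3 differed by 0.57, 0.51 and 0.53 on the log2 scale. The log2 fold change was 0.55 ± 0.12 (SE) at an edgeR adjusted p of 0.507 unblocked, and 0.55 ± 0.08 at 0.0485 blocked. DESeq2 without the block gave an adjusted p of 0.0446. Without pair 1 the blocked edgeR test gave 0.53 and an adjusted p of 0.468, so the call was lost while the size was not. That test called 0 of 15002 genes.

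Of the same 20 genes, 12 lay above vehicle and 8 below, the median log2 fold change was 0.08, and 6 had groups apart with EPZ5676 higher and 1 lower, beside 7.22% and 7.64% of all genes. Men1, which encodes menin, a subunit of the Kmt2a and Kmt2b complexes, was at 140, 154 and 129 CPM with EPZ5676 against 109, 123 and 116 CPM with ethanol. Its groups did not overlap, and its edgeR adjusted p was 0.596 unblocked and 0.0818 blocked. Of the core subunits shared by the H3 lysine 4 writers, Wdr5, Ash2l and Rbbp5 had log2 fold changes of 0.07 ± 0.07, 0.09 ± 0.12 and -0.03 ± 0.08 (SE), and Dpy30, the gene lower in every EPZ5676 library, had one of -0.13 ± 0.07.

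The remaining lists held no gene that passed over all genes in either fit. Of 12 demethylase partners, 7 had positive values and the median was 0.03. Arid5b, whose protein binds PHF2, was at 25.6, 13.7 and 21.98 CPM with EPZ5676 and 16.3, 11.4 and 15.5 CPM with ethanol, at 0.50 ± 0.24 (SE). That value was 0.30 without EPZ5676 replicate 1 and 0.72 without EPZ5676 replicate 2. Hmg20b, a subunit of an LSD1 complex, was at 0.24 ± 0.18, or 0.05 without EPZ5676 replicate 2 and 0.35 without EPZ5676 replicate 3. The 21 tested genes of other lysine methylation enzymes, among them Kmt2a and Dot1l, had a median of 0.02. The 9 tested arginine methylation genes had a median of -0.01, with Prmt6 at 0.23 ± 0.12 and Prmt9 at -0.22 ± 0.13. Prmt6 was at 0.14 without ethanol replicate 2 and 0.29 without ethanol replicate 1. Prmt9 was at -0.11 without EPZ5676 replicate 2, -0.13 without ethanol replicate 3 and -0.33 without EPZ5676 replicate 3. The 17 tested genes of methyl donor supply had a median of -0.05, with Mtap, of methionine salvage, at -0.21 ± 0.11 and Ahcyl2 at -0.18 ± 0.09. Ahcyl2 was at -0.11 without EPZ5676 replicate 1 and -0.23 without EPZ5676 replicate 3.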

How the data were processed

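The authors deposited whole-number read counts per gene symbol for 6 libraries. The mm9 build and the tools Bowtie, edgeR, featureCounts and STAR are named in the submitters' processing notes, without versions or roles; gene annotation and use of strand were not stated, so reads of overlapping, antisense or near-identical genes may be shared. The labels' protocols name TRIzol extraction and a stranded mRNA library kit. A deposited table of repeat families was not used.

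Counts were analysed in R 4.3.3 with edgeR 4.0.16: filterByExpr (14855 genes kept), TMM scaling, the quasi-likelihood test, 2-sided, with Benjamini-Hochberg adjustment over all genes tested and a threshold of 0.05. CPM are TMM-normalised. The SE is the log2 fold change divided by the root of the F statistic, and 95% intervals use the moderated degrees of freedom. Log2 ratios of pairs and of replicate 2 used CPM with 0.5 added. Exon lengths are unions of GENCODE M21 basic exons on GRCm38; no coordinates are given. No 2 libraries agreed within sampling noise (chi-square per degree of freedom at least 3.64, for genes with at least 20 counts).

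Whether replicate numbers pair the libraries was checked by correlating deviations from group means across genes. Same-numbered libraries correlated at 0.411, 0.614 and 0.335, all above the bound of 0.1, so the blocked fit stands beside results it changes. Unlike numbers also passed the bound for EPZ5676 1 with ethanol 3 (0.278) and EPZ5676 3 with ethanol 1 (0.149). The check thus sets replicate 2 apart more clearly than it tells replicate 1 from replicate 3. No label states what the numbers mean. Residual degrees of freedom were 4 without the block and 2 with it. DESeq2 1.42.0, limma 3.58.1 (voom), other scalings and filters, and leaving out libraries or pairs were alternatives. The script was tested on simulated data.

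The members and lists were chosen with earlier results of these data known. Members named with values in each library were those called in either fit, those with an unadjusted p under 0.05 in either, those whose groups did not overlap, the highest and lowest log2 fold change, and the member of highest mean CPM in each class; of related lists, called genes or else the 2 of smallest p, with Dot1l and Kmt2a. Other genes were named after their values were seen.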

Additional observations from a re-analysis of the deposited data

How the results depend on the processing

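Direction was followed for 14 named members, and calls for all 39. No member was called under any unblocked setting, or by edgeR under the block with all pairs, with TMM scaling or library totals alone. In edgeR without the block 2 members had an unadjusted p under 0.05, and limma-voom gave 1 and DESeq2 2. With the block in edgeR and without pair 2, 11 members were higher and 1 lower at that level, beside 1481 higher and 1543 lower of 14822 genes. The replicate block called 5 members without pair 2, 1 without pair 3 and 1 in DESeq2. The median log2 fold change of the members lay between -0.01 (block, without pair 1) and 0.06 (block, without pair 2). Over all genes, edgeR without the block and limma-voom called 0 (1101 and 1122 at an unadjusted p under 0.05); calls became 50 in DESeq2, 97 with the replicate block, 10 without both replicate 2 libraries, 193 with the block and library totals alone and 293 with the block in DESeq2. The block gave 795 without pair 2, 761 without pair 3 and 0 without pair 1, where 1169 genes had an unadjusted p under 0.05. In the related lists, where edgeR without the block made 0 calls among 79 genes (5 below 0.05 before adjustment), calls became 1 in DESeq2, 1 with the block, 1 with the block and library totals alone, 7 and 9 with the block without pair 2 or 3, and 5 with the block in DESeq2. Sign changes were limited to 4 named genes, Kdm1a, Kdm5b, Setd5 and Nsd1. Kdm1a was at 0.0004 with DESeq2 size factors and in DESeq2, 0.0096 with no filter, 0.0701 without both replicate 2 libraries and 0.0699 with the block without pair 2, and between -0.0792 and 0.0991 when leaving out 1 library. Kdm5b was at -0.0050 with the block without pair 1 and between -0.0042 and 0.0508 leaving out 1 library, and Setd5 between -0.1047 and 0.0015. Nsd1, at -0.1023 in edgeR without the block, was at 0.0222 without both replicate 2 libraries and 0.0208 with the block without pair 2. It was at -0.1870 with the block without pair 3. Of 437 values for the 23 named genes under 19 alternatives, 407 kept direction and call. With 3 libraries a group and a common biological coefficient of variation of 0.148 (0.0785 with the block), the 95% intervals of 34 members (37 with the block) lay within 1.5-fold.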
